A study of Mus musculus with 25 samples.

Results

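The genes described here are 30 integrin and laminin subunits, taken by symbol from the 37406 genes measured: 13 integrin alpha subunits, 7 integrin beta subunits, 5 laminin alpha chains, 3 laminin beta chains and 2 laminin gamma chains. All 30 symbols were found, each on 1 row. Expression was measured by RNA-Seq of laser captured tissue from the forming secondary palate of wild type CD1 mouse embryos at E14.5, around the time of shelf fusion. Each shelf region, anterior or posterior, was divided in one way into medial and lateral and in another way into oral and nasal, giving 8 compartments, with 4 libraries for anterior nasal and 3 for each other compartment, 25 in all. Medial and lateral samples therefore cut across the oral and nasal ones. The mesenchymal identity was checked with 10 palate mesenchyme genes, of which 9 or 10 had a mean of at least 5 RPKM in each compartment, and markers of vessels, nerve, macrophages and epithelium were also detected, so every sample was a mixture.

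Integrins are cell surface receptors made of 1 alpha and 1 beta subunit, and the alpha subunit largely sets which matrix protein is bound: collagens, laminins, proteins that carry an RGD motif such as fibronectin and nephronectin, or the ligands shared by the alpha4 and alpha9 subunits. Laminins are secreted trimers of an alpha, a beta and a gamma chain that form the network of basement membranes around epithelia, vessels, muscle and nerve. In the palate, both connect the neural crest derived mesenchyme to its matrix and to the overlying epithelium.

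The levels of the 30 genes spanned from the most abundant transcripts to near the detection limit. Levels are given as RPKM, reads scaled to transcript length and to library size, which allows comparison between genes. Integrin beta1 (Itgb1), the partner of most alpha subunits, had the highest median over the 25 libraries, 62.3 RPKM. It was followed by Itga8 at 42.8, Lama4 at 42.6, Lamc1 at 42.3, Itgb5 at 33.4, Itga5 at 29.0 and Lamb1 at 25.1 RPKM. Itgav, Itga9, Lamb2, Lama2 and Itga6 had medians between 18.2 and 10.01 RPKM. The mean of 20 of the 30 reached 5 RPKM in at least 1 compartment, and 15 had a median under 5 RPKM. The neighbours Itga8, Lama4 and Lamc1 had overlapping ranges over the 25 libraries, so their order is not resolved.

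Each class was dominated by few genes. Lama4, the chain of vascular and mesenchymal laminins, made up 68.1% ± 4.53 (SD, n = 25) of the summed RPKM of the laminin alpha chains, and Lama2, the chain of the laminin around muscle and nerve, 19.2% ± 3.93. Lamb1 and Lamb2 held 59.1% ± 7.52 and 39.5% ± 8.09 of the beta chains. Among the integrin beta subunits Itgb1 held 56.4% ± 6.77 and Itgb5, a partner of Itgav, 32.2% ± 8.53. Among the alpha subunits the RGD receptors Itga8 and Itga5 held 27.3% ± 10.8 and 19.9% ± 6.31.

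The levels by compartment are given by role, as mean RPKM ± SD over 4 libraries for anterior nasal and 3 for the others. Among the laminin chains, Lama4 had 43.7 ± 3.11 in anterior medial, 51.4 ± 5.37 lateral, 41.5 ± 12.1 oral and 33.9 ± 5.21 nasal palate, and 37.8 ± 10.1 in posterior medial, 41.4 ± 1.91 lateral, 46.4 ± 2.44 oral and 30.3 ± 4.02 nasal palate. Lama2 had 11.8 ± 1.04 in anterior medial, 14.8 ± 0.931 lateral, 12.7 ± 3.59 oral and 11.7 ± 2.18 nasal palate, and 11.6 ± 2.70 in posterior medial, 9.66 ± 2.28 lateral, 12.5 ± 0.185 oral and 6.36 ± 1.04 nasal palate. Both had their lowest mean in posterior nasal palate. Lamc1, the gamma chain of most laminins, had 39.2 ± 4.02 in anterior medial, 51.9 ± 2.52 lateral, 42.8 ± 19.0 oral and 33.3 ± 9.80 nasal palate, and 38.7 ± 13.1 in posterior medial, 42.4 ± 4.80 lateral, 47.7 ± 8.85 oral and 32.6 ± 7.31 nasal palate. Its order of compartments was close to that of Lama4, with anterior lateral highest. Lamb1 had 24.1 ± 1.03 in anterior medial, 28.3 ± 0.960 lateral, 25.4 ± 3.21 oral and 26.1 ± 2.78 nasal palate, and 18.1 ± 3.11 in posterior medial, 27.9 ± 1.79 lateral, 25.5 ± 2.99 oral and 28.0 ± 4.31 nasal palate. Lamb2, the beta chain of mature basement membranes, had 17.1 ± 0.151 in anterior medial, 20.4 ± 1.52 lateral, 17.6 ± 9.53 oral and 13.3 ± 2.31 nasal palate, and 15.4 ± 10.5 in posterior medial, 16.4 ± 1.19 lateral, 22.5 ± 8.08 oral and 20.6 ± 7.03 nasal palate. For Lamb2 the SD was widest in the compartments that hold the 2 libraries described below as standing apart, posterior medial and anterior oral, followed by posterior oral.

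Among the receptors, Itga5, which binds fibronectin, had 31.2 ± 4.29 in anterior medial, 31.4 ± 2.29 lateral, 28.7 ± 15.7 oral and 24.5 ± 4.46 nasal palate, and 33.6 ± 19.4 in posterior medial, 33.3 ± 9.24 lateral, 37.1 ± 11.5 oral and 29.4 ± 7.43 nasal palate. Itga9, which binds tenascin and other ligands, had 16.8 ± 4.00 in anterior medial, 16.4 ± 1.72 lateral, 21.8 ± 3.23 oral and 17.4 ± 3.96 nasal palate, and 12.7 ± 3.64 in posterior medial, 16.6 ± 4.54 lateral, 19.9 ± 2.81 oral and 14.6 ± 3.29 nasal palate. Itga4, which binds fibronectin and Vcam1, had 7.92 ± 0.793 in anterior medial, 11.3 ± 1.65 lateral, 13.4 ± 5.68 oral and 17.4 ± 7.09 nasal palate, and 11.8 ± 7.74 in posterior medial, 9.17 ± 3.29 lateral, 6.44 ± 0.458 oral and 4.80 ± 1.86 nasal palate, its lowest mean again in posterior nasal palate. Neither Itga5 nor Itga9 reached an unadjusted P of 0.05 among the compartments. The collagen receptor Itga1 had 8.22 ± 0.756 in anterior medial, 8.93 ± 0.772 lateral, 7.94 ± 1.38 oral and 8.98 ± 1.43 nasal palate, and 12.5 ± 4.66 in posterior medial, 6.13 ± 2.23 lateral, 6.63 ± 0.806 oral and 7.06 ± 0.951 nasal palate. Itgb3, a partner of Itgav and of the platelet subunit, had 4.04 ± 0.366 in anterior medial, 3.97 ± 0.749 lateral, 9.82 ± 3.58 oral and 6.49 ± 4.12 nasal palate, and 3.63 ± 1.86 in posterior medial, 4.32 ± 2.60 lateral, 2.93 ± 0.697 oral and 4.06 ± 0.597 nasal palate, and its highest mean was in anterior oral palate. Itgb1 had 61.5 ± 9.94 in anterior medial, 63.5 ± 4.09 lateral, 60.8 ± 11.2 oral and 67.1 ± 10.2 nasal palate, and 52.5 ± 21.2 in posterior medial, 69.0 ± 9.76 lateral, 61.0 ± 13.5 oral and 69.9 ± 9.12 nasal palate. Itgb5 had 34.5 ± 8.87 in anterior medial, 33.7 ± 3.92 lateral, 26.7 ± 13.1 oral and 32.9 ± 9.28 nasal palate, and 23.9 ± 2.68 in posterior medial, 41.3 ± 14.01 lateral, 40.9 ± 11.2 oral and 65.5 ± 6.37 nasal palate. The beta5 subunit spanned a wider range of means than beta1. Itga3, Itga7, Itga2b, Itgb4, Itgb6, Itgb7, Lama3, Lama5, Lamb3 and Lamc3 stayed under a mean of 5 RPKM in every compartment.

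For the subunits called in a comparison or in the test among compartments, and for Itga11, the levels were as follows. Itgav, the alpha subunit of the vitronectin receptors, had 20.7 ± 1.37 in anterior medial, 22.7 ± 1.36 lateral, 18.7 ± 3.13 oral and 21.4 ± 3.49 nasal palate, and 12.62 ± 4.86 in posterior medial, 15.3 ± 2.53 lateral, 17.3 ± 2.80 oral and 14.8 ± 2.30 nasal palate, with each anterior mean above each posterior one. Itga6, a laminin receptor, had 10.2 ± 1.11 in anterior medial, 14.7 ± 1.17 lateral, 13.9 ± 7.94 oral and 8.46 ± 2.13 nasal palate, and 6.42 ± 3.02 in posterior medial, 10.6 ± 2.04 lateral, 14.6 ± 2.04 oral and 6.24 ± 0.828 nasal palate. The collagen and laminin receptor Itga2 had 4.24 ± 0.424 in anterior medial, 8.16 ± 1.32 lateral, 9.95 ± 2.16 oral and 4.84 ± 1.56 nasal palate, and 4.25 ± 3.59 in posterior medial, 8.86 ± 2.40 lateral, 8.09 ± 2.34 oral and 3.44 ± 1.014 nasal palate. Both had their lowest mean in posterior nasal palate. The collagen receptor Itga10 had 2.10 ± 0.407 in anterior medial, 2.44 ± 0.668 lateral, 2.46 ± 1.06 oral and 1.94 ± 0.169 nasal palate, and 2.72 ± 1.09 in posterior medial, 2.91 ± 1.49 lateral, 3.27 ± 0.746 oral and 9.35 ± 3.57 nasal palate, and Itga11, which also binds collagen, had 3.33 ± 0.709 in anterior medial, 4.48 ± 0.273 lateral, 6.61 ± 4.52 oral and 5.73 ± 3.25 nasal palate, and 5.995 ± 5.35 in posterior medial, 4.05 ± 2.24 lateral, 3.35 ± 0.777 oral and 9.42 ± 3.23 nasal palate. Both had their highest mean in posterior nasal palate. Itgb8, a partner of Itgav, had 3.67 ± 1.09 in anterior medial, 5.09 ± 0.815 lateral, 3.52 ± 0.263 oral and 3.05 ± 0.792 nasal palate, and 5.49 ± 4.26 in posterior medial, 3.19 ± 1.17 lateral, 2.02 ± 0.0599 oral and 1.12 ± 0.605 nasal palate. Lama1 had 0.946 ± 0.456 in anterior medial, 3.26 ± 0.531 lateral, 2.37 ± 1.40 oral and 2.33 ± 0.877 nasal palate, and 7.31 ± 1.76 in posterior medial, 6.53 ± 2.57 lateral, 5.59 ± 1.66 oral and 4.89 ± 3.05 nasal palate, with each posterior mean above each anterior one.

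The subunits typical of epithelial attachment were low. Itgb4 and Itga3, which serve in epithelial basement membrane adhesion, had medians of 1.13 and 1.74 RPKM. Lama3 and Lamb3, laminin chains typical of epithelium, had medians of 1.74 and 0.509 RPKM, and Itgb6, an epithelial partner of Itgav, 0.242 RPKM. The platelet subunit Itga2b had a median of 0.579 RPKM, and 6 leukocyte integrins summed to between 3.71 and 17.5 RPKM per library. Defining markers of epithelium were present: the 16 genes of the epithelium list summed to between 34.4 and 196 RPKM, against 435 to 831 RPKM for the 10 palate mesenchyme genes. The span of Itgb4 overlaps that of the more abundant Galk1 (8.58 to 51.9 RPKM) and the span of Lamb3 that of G0s2 (3.49 to 27.3 RPKM). Exon positions were not compared and strand specific counting is not stated. Whether reads of these pairs were mixed was therefore not tested.

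**Figure D1:**
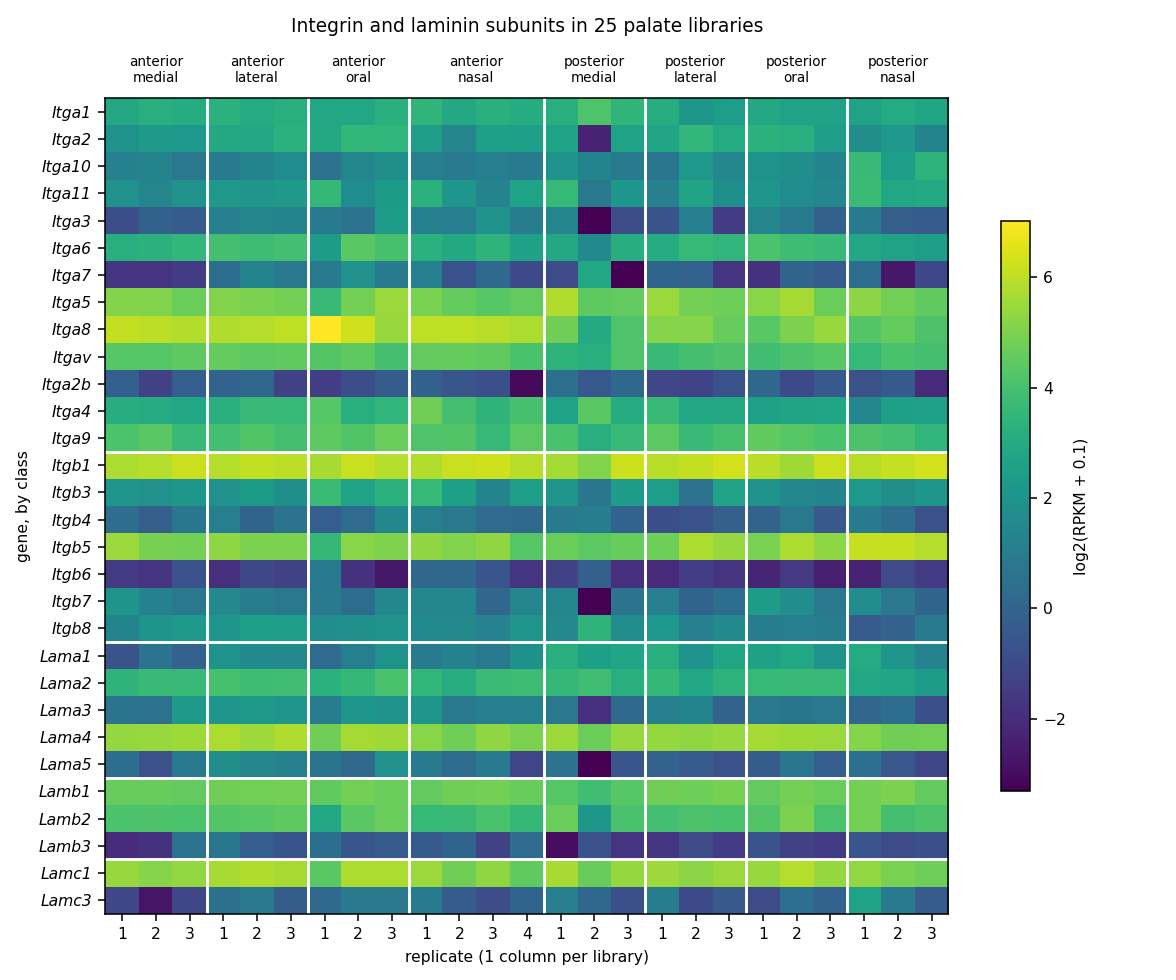
Heat map of log2(RPKM + 0.1) for the 30 subunits (rows, grouped by class) in the 25 libraries (columns, grouped by compartment). Itgb1, Itga8, Lama4 and Lamc1 are high in nearly all columns, Itga8 is lower in the posterior columns, and posterior medial replicate 2 stands apart in several rows.

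**Figure D2:**
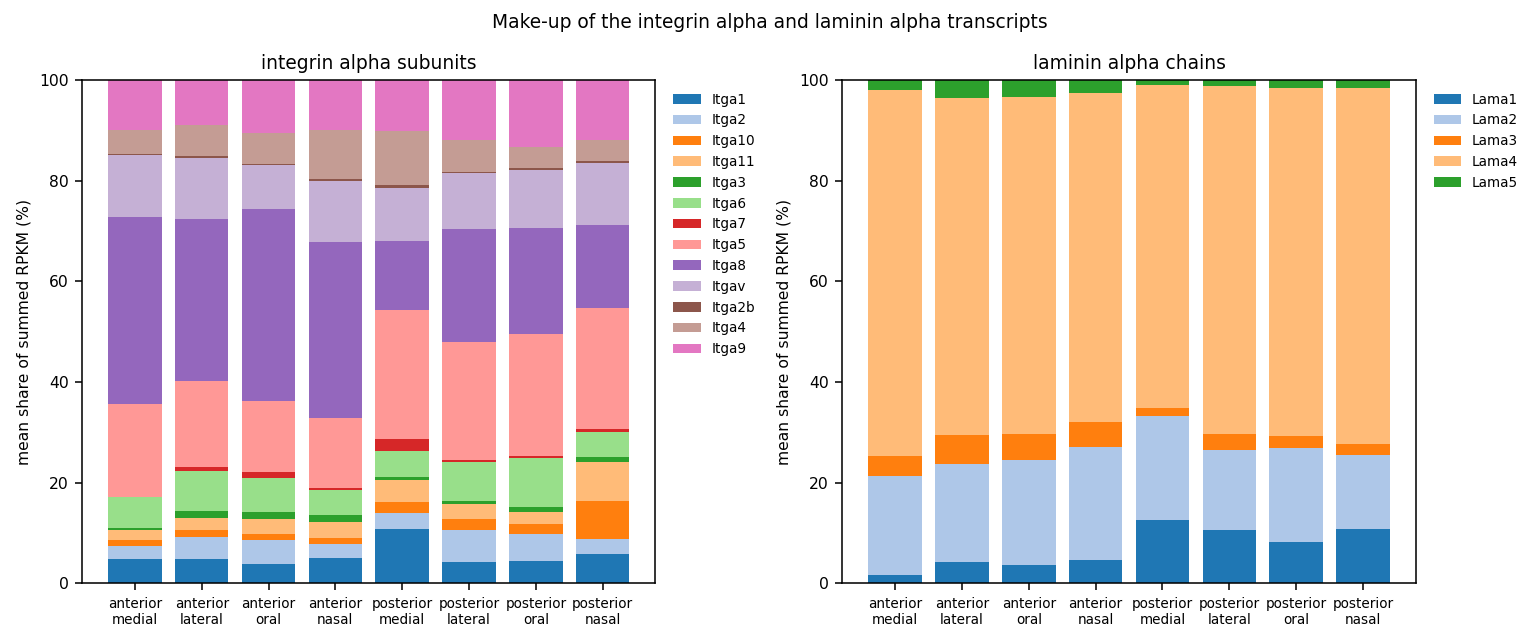
Mean share of the summed RPKM of the integrin alpha subunits (left) and laminin alpha chains (right), in percent, for each compartment. The Itga8 share runs from 32.1% to 38.1% in the anterior compartments and from 13.7% to 22.4% in the posterior ones, while the Lama4 share stays between 64.2% and 72.7%.

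Some limits of the libraries bear on every comparison. The smallest steps between low RPKM values implied 1.64 to 6.56 M counted reads per library, so that 1 read on a transcript of 5000 bases was worth 0.0305 to 0.122 RPKM. Posterior medial replicate 2 stood apart, with 12935 genes above 0 against a median of 16897 and a mean correlation of 0.652 with the other libraries of its compartment, and anterior oral replicate 1, the shallowest library, did so to a lesser degree (0.703). The study's methods call the replicates biological, but the labels do not tie libraries to embryos, and where embryos were shared p-values measure only the spread between these samples. Some alignment names that the study lists carry Tgfbr2 or ERK2 before WT, although the labels give wild type CD1 for all, and the colony of these libraries was not tested. By the same names the libraries came from 8 sequencing runs, and no run held both anterior medial and anterior lateral or both posterior medial and posterior lateral libraries, so run and compartment cannot be told apart there.

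In the coordinates of the deposited table, build mm9, the genes called in at least 1 test lie at chr2:12028287-12223547 (Itga8), chr2:83564554-83647073 (Itgav), chr13:115626120-115722249 (Itga2), chr2:71625140-71694815 (Itga6), chr3:96449507-96468442 (Itga10), chr17:68046605-68171985 (Lama1) and chr12:120401276-120476749 (Itgb8), and the values count reads over each gene's transcripts.

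For 3 members whose contrasts are described below, the sequences just before the RefSeq gene start are shown. Itga8 is shown because it had the largest difference among the 13 members tested between anterior and posterior palate, and the collagen receptors Itga10 and Itga11 because their means were both highest in posterior nasal palate. The sequences are from RefSeq, build GRCm38.p6, 250 bases each, 5′ to 3′ on the strand of the gene: Itga8 at chr2:12301945-12302194 on the minus strand, Itga10 at chr3:96645334-96645583 and Itga11 at chr9:62677605-62677854 on the plus strand. Capitals mark each match to the E-box CANNTG, the letters recognised by basic helix-loop-helix factors, which reads the same on both strands.
Itga8: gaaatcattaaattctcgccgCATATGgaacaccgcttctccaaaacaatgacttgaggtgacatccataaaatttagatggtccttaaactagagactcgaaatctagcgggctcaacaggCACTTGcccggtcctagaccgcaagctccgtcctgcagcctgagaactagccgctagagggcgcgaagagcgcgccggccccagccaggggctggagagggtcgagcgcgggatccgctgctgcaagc
Itga10: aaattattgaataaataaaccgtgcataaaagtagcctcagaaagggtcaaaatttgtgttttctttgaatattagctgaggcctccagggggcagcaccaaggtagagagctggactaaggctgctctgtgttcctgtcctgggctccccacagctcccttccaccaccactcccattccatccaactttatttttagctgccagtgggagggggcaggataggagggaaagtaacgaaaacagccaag
Itga11: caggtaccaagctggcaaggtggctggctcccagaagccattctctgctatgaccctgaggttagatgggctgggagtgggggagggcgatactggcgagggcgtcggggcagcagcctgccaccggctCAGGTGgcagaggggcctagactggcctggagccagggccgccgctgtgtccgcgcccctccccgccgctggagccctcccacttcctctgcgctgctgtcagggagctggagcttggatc
The E-box letters occurred 2 times before Itga8, 1 time before Itga11 and in no place before Itga10, and 66.2% of all 32851 promoters of this length held at least 1 match. The RUNX letters TGTGGT (or ACCACA on the other strand) were in none of these 3 windows. They were in 14% of all promoters and in those of Itga3 and Itga4 among the 21 members with a promoter in the table. The TATA box TATAAA (or TTTATA) was in 12.4% of all promoters and in 0 of the 24 promoters of those 21 members, and the GC box GGGCGG (or CCGCCC) was in 32.7% of all and in promoters of 7 of the 21. None of these letters shared bases with a marked E-box in the 3 windows. Matches and their absence describe only these windows.

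Anterior and posterior palate were compared over the 13 anterior and 12 posterior libraries to find subunits graded along this axis. The RGD receptor subunits Itga8 and Itgav were lower in posterior palate, by 2.72-fold and 1.41-fold, and no tested member was called higher. Every member overlapped between the regions (0 of 13 without overlap, against 0.267% of all genes). Itga8 pairs with Itgb1 to bind nephronectin and marks mesenchyme and smooth muscle in several organs. It ranged from 42.4 to 130 RPKM in anterior libraries, with a median of 64.5, and from 8.03 to 42.8 RPKM in posterior ones, with a median of 24.1. Only the highest posterior library, posterior oral replicate 3, exceeded the lowest anterior library, anterior oral replicate 3. The difference was -1.45 on the log2 scale (SE 0.20, adjusted p = 3.3e-05, limma).

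By compartment, the Itga8 level was 62.7 ± 5.59 RPKM in anterior medial, 59.3 ± 5.04 in anterior lateral and 61.1 ± 5.55 in anterior nasal palate (SD, n = 3, 3 and 4). Anterior oral palate had 83.6 ± 44.1 RPKM (n = 3), a mean that rested on replicate 1 with 130 RPKM, and was 60.4 ± 25.4 RPKM (n = 2) without it. The posterior compartments had 31.7 ± 6.11 (lateral), 31.8 ± 11.1 (oral), 20.04 ± 3.19 (nasal) and 17.9 ± 9.85 RPKM (medial, n = 3 each). The anterior compartments overlapped with each other, while in posterior palate the nasal libraries lay below the lateral ones and the other pairs overlapped. None of the 4 comparisons within anterior or within posterior palate called Itga8 (adjusted p 0.738 to 1.00, limma). Within the 3 sequencing runs that held libraries of both regions the difference was -1.26, -1.53 and -1.39 on the log2 scale, although different compartments stood in each run. Itga8 overlaps E030013I19Rik, which reached at most 7.53 RPKM.

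Itgav pairs with Itgb1, Itgb3, Itgb5, Itgb6 or Itgb8 and can activate latent TGF-beta. Its level ran from 15.5 to 24.1 RPKM (median 21.7) in anterior libraries and from 9.24 to 19.96 RPKM (median 15.5) in posterior ones. The 2 ranges overlapped, with a mean of 20.9 ± 2.73 against 14.997 ± 3.31 RPKM. The difference of -0.50 (SE 0.12, adjusted p = 0.0111, limma) was no longer called with sequencing run as a covariate, where the adjusted p was 0.520.

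In this comparison 2 of 13 members tested passed an adjusted p of 0.05 and both were lower in posterior palate, against 3.32% of all genes tested in either direction and 1.66% lower. At the thresholds of the study, a P under 0.05, read here as unadjusted, with a fold change over 2, 1 of 13 passed, Itga8, against 1.75% of all genes, and at an unadjusted P under 0.05 alone 4 of 13, against 15.3%. The study applied them to a pooled Audic-Claverie analysis of this comparison, and here they were applied to limma. The median log2 difference was -0.10 over the members and 0.03 over all genes, and 3 of 13 members were above 0, against 55.7% of all genes. Itga4 (-0.73, SE 0.24, adjusted p = 0.106) and Lama2 (-0.38, SE 0.15, adjusted p = 0.205) passed only the unadjusted 0.05. Itgb1 was near level, at -0.04 with a 95% interval from -0.29 to 0.21. Smooth muscle and pericyte markers moved with this comparison: 3 of 7 tested were lower in posterior palate (Rgs5, Actg2 and Abcc9), and the 11 markers summed to 138 to 287 RPKM in anterior and 92.8 to 195 RPKM in posterior libraries. Prrx1 of the mesenchyme list was also lower and Col2a1 of the cartilage list higher in posterior palate. The part of these cells in the Itga8 and Itgav differences was not tested. In bulk samples, fewer cells of a type and less RNA per cell cannot be told apart.

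Lama1, the alpha chain of early embryonic basement membranes, had the opposite gradient but was too low for the minimum of 10 RPKM in 6 libraries used here. It ranged from 0.539 to 3.89 RPKM in anterior libraries (median 2.11) and from 2.28 to 9.23 RPKM in posterior ones (median 6.45). The ranges overlapped only through posterior nasal replicate 3, posterior oral replicate 3 and posterior lateral replicate 2 at their low end. With the minimum set at 5 RPKM in 3 libraries it entered the test and was higher in posterior palate by 1.49 (SE 0.28, adjusted p = 0.00150, limma). Lama1 met this minimum only through posterior libraries, so its being tested depended on the difference, and the call is a description of this gene. Among the laminin alpha chains its mean share was between 1.58% and 4.62% in the anterior compartments and between 8.26% and 12.5% in the posterior ones. Lama3, the epithelial chain, was called only with no minimum at all, lower in posterior palate (-1.27, SE 0.31, adjusted p = 0.0249, limma), with 3.14 ± 1.33 against 1.32 ± 0.651 RPKM. Of 4 epithelial markers tested 0 were above 0 in the difference and none was called, and the 16 epithelium genes summed to 59.1 to 192 RPKM in anterior and 34.4 to 196 RPKM in posterior libraries. The part of epithelium in the Lama3 difference was not tested.

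**Figure D3:**
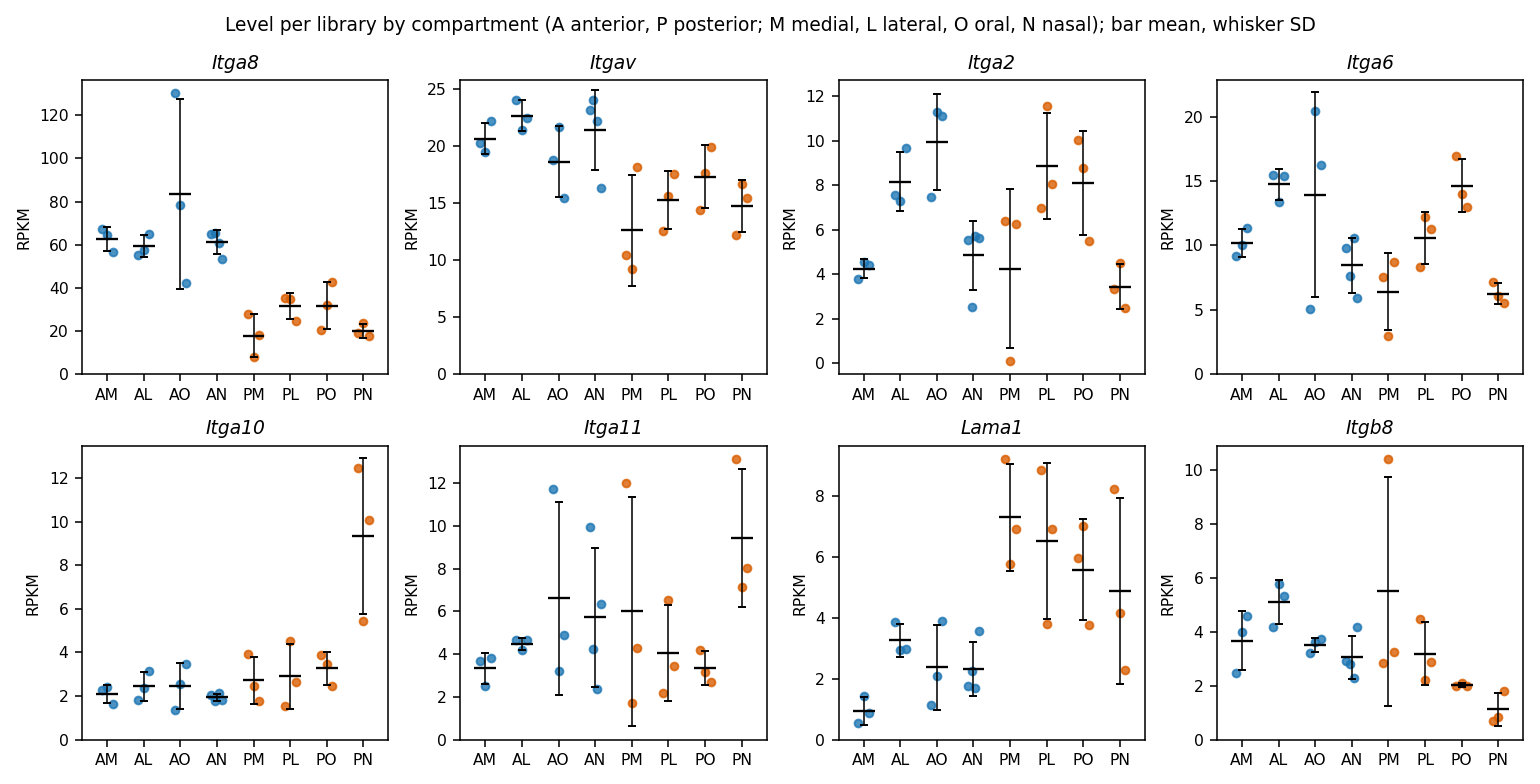
RPKM per library (points) of 8 subunits by compartment, with the mean (bar) and SD (whisker), anterior in blue and posterior in orange. Itga8 and Itgav have lower and Lama1 higher means in posterior palate, Itga2 and Itga6 have higher means in lateral than medial and in oral than nasal palate, and Itga10 and Itga11 have their highest means in posterior nasal palate.

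Oral and nasal palate were compared within each region to find subunits graded from the mouth to the nasal side. In posterior palate, 1 of 18 members tested passed the adjusted threshold, Itga6, against 1.25% of all genes, and 4 of 18 passed the thresholds of the study, against 3.5% of all genes. Of these 4, Itga2, Itga10 and Itga11 were tested only through the group where they were higher, so the count describes the members tested. Itga6, a laminin receptor of epithelium and endothelium, had 16.9, 14.01 and 12.96 RPKM in posterior oral and 7.14, 6.08 and 5.50 RPKM in posterior nasal libraries. The groups did not overlap, and the difference was 1.21 (SE 0.22, adjusted p = 0.0402, limma), 2.32-fold. Within the 2 runs that held both compartments it was 1.23 and 1.14. Without any 1 of the 6 libraries the adjusted p lay between 0.0931 and 0.261, with differences from 1.11 to 1.31, so the call rested on all 6, and it was kept in 4 of the 16 alternative settings.

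Itga2 and 2 laminin alpha chains also had higher means in posterior oral palate, without an adjusted call. Itga2, a collagen receptor of epithelium, endothelium and platelets, had 10.02, 8.76 and 5.48 RPKM in oral and 3.35, 4.50 and 2.47 RPKM in nasal libraries, with no overlap. It met the minimum only through the oral libraries, so its being tested depended on the difference, and it passed the thresholds of the study but not the adjusted one (1.21, SE 0.31, adjusted p = 0.159, limma). Lama2 had 12.3, 12.56 and 12.63 RPKM in oral against 7.24, 6.64 and 5.22 RPKM in nasal libraries (0.97, SE 0.21, adjusted p = 0.0873). Lama4 had 48.8, 46.3 and 44.0 against 34.9, 27.7 and 28.3 RPKM (0.62, SE 0.20, adjusted p = 0.328). Both chains were without overlap and passed only the unadjusted 0.05.

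The collagen receptors Itga10 and Itga11 had the reverse pattern, with higher means in posterior nasal palate and no adjusted call. Itga10, a receptor of cartilage and bone forming mesenchyme, had 12.5, 5.46 and 10.1 RPKM in posterior nasal and 3.89, 3.47 and 2.44 RPKM in posterior oral libraries. Itga11, a receptor for fibrillar collagen on mesenchymal cells, had 13.1, 7.13 and 8.01 against 4.20, 3.17 and 2.68 RPKM. Neither overlapped between the groups. Both met the minimum only through the nasal libraries, so that their being tested depended on the difference, and both passed the thresholds of the study but not the adjusted one (Itga10 -1.43, SE 0.34, adjusted p = 0.115; Itga11 -1.44, SE 0.29, adjusted p = 0.0699, limma). Within the 2 shared runs the Itga10 difference was -1.66 and -0.89, and the Itga11 difference -1.62 and -1.26. Itgb5, a vitronectin receptor subunit, had 69.2, 69.2 and 58.1 RPKM in nasal and 31.0, 53.1 and 38.6 RPKM in oral libraries (-0.71, SE 0.25, adjusted p = 0.397), again without overlap. In all, 8 of 18 members did not overlap between posterior oral and nasal libraries, against 11.8% of all genes tested. At an unadjusted P under 0.05 there were 7 of 18, against 8% of all genes, and 12 of 18 were above 0, against 47.8%. These counts include the 3 members, Itga2, Itga10 and Itga11, that were tested through 1 group, and describe the members tested.

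Markers of other cell types moved with this comparison. All 6 osteoblast markers tested were lower in posterior oral than nasal palate, and the 10 osteoblast genes summed to 102 to 125 RPKM in oral and 497 to 704 RPKM in nasal libraries. All 12 endothelial markers were above 0 in the difference and 1, Emcn, was called, with sums of 284 to 394 RPKM in oral and 134 to 187 RPKM in nasal libraries. Among integrin ligands, Ibsp, the bone sialoprotein with an RGD motif (-6.22, adjusted p = 0.0284), and Tnn, tenascin-N (-2.12, adjusted p = 0.0202), were the 2 of 24 tested that passed, both lower in oral palate. Of all genes tested 1.25% passed there. Krt18 and Acan were lower and Foxf2 of the mesenchyme list was higher in oral palate. The 10 palate mesenchyme genes summed to 554 to 744 RPKM in oral and 435 to 497 RPKM in nasal libraries, without overlap. Of the 9 tested, 6 were above 0 in the difference. The part of bone, vessel and other cells in the differences of the subunits was not tested.

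Across the 25 libraries the level of Itga6 went with the summed endothelial markers, given here as a description, since libraries of a compartment share their tissue and some share a run. On the log2 scale the Pearson correlation was 0.773 and the Spearman correlation 0.810, and Pearson's r was 0.764 without the 2 libraries farthest from the median of the markers. For Itga2 these values were 0.610, 0.818 and 0.600. For the laminin chains Lama4 and Lamc1 they were 0.761, 0.759 and 0.741, and 0.742, 0.786 and 0.687. With compartment means removed, Pearson's r was 0.644 for Itga6, 0.512 for Itga2, 0.605 for Lama4 and 0.753 for Lamc1. The 2 libraries farthest from the median were posterior nasal replicate 3 and posterior oral replicate 2. Anterior oral replicate 1 and posterior medial replicate 2, which stand apart, were kept in all these correlations and may weigh on them. No such value is given for the osteoblast markers, whose sums in posterior nasal libraries were separate from the 55.4 to 229 RPKM of all others.

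**Figure D4:**
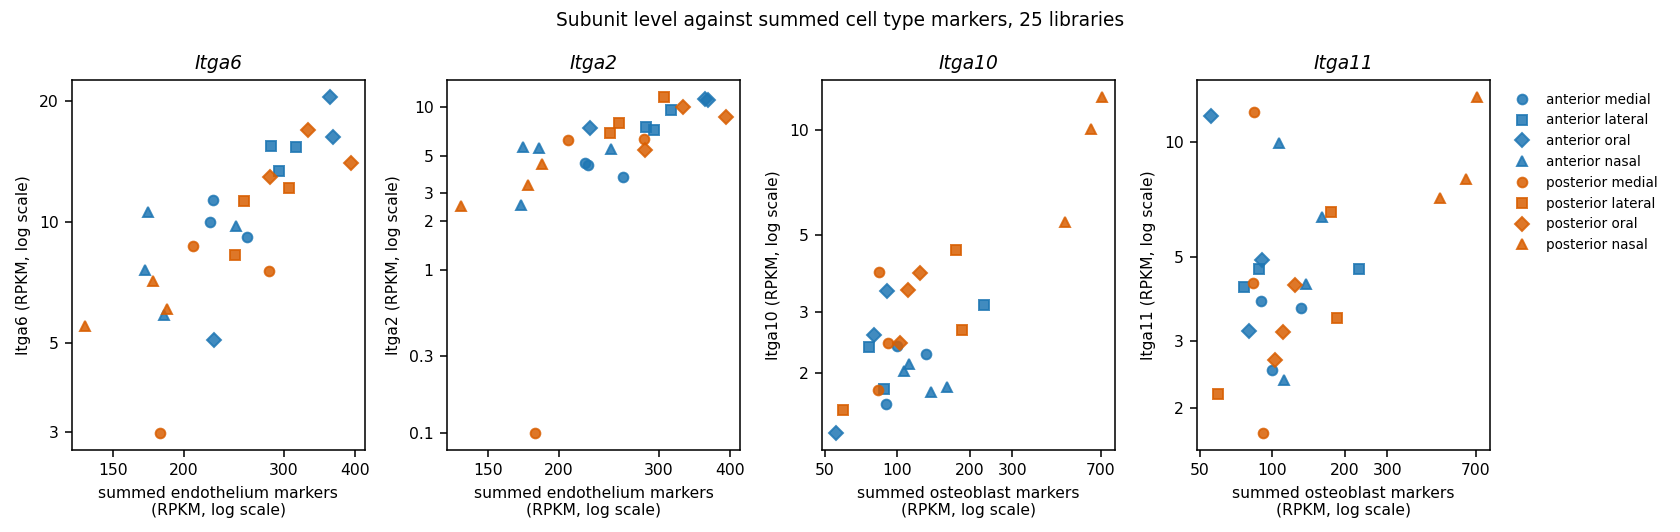
RPKM of Itga6 and Itga2 against the summed RPKM of 12 endothelial markers, and of Itga10 and Itga11 against that of 10 osteoblast markers, 1 point per library, both axes logarithmic. Itga6 and Itga2 tend to be higher where endothelial markers are higher, and the 3 posterior nasal libraries lie apart at 497 to 704 RPKM of osteoblast markers.

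In anterior palate, no member of 17 tested passed the adjusted threshold between oral and nasal libraries with limma, where 0% of all genes did, and 1 passed at an unadjusted P under 0.05 (2.98% of all genes), which also passed the thresholds of the study (1.44%). Of the 17, 11 were above 0, against 47.6% of all genes. The 1 member was Itga2, with 7.46, 11.3 and 11.1 RPKM in oral and 5.53, 2.50, 5.70 and 5.61 RPKM in nasal libraries. It was the only one of the 17 without overlap between the groups, against 3.67% of all genes. The difference was 1.07 (SE 0.35, adjusted p = 1.00, limma), and 0.98, 0.97 and 0.97 within the 3 runs that held both compartments. All 12 endothelial markers were above 0 and none was called, with sums of 227 to 366 RPKM in oral and 171 to 247 RPKM in nasal libraries. The osteoblast genes summed to 55.4 to 90.8 against 107 to 160 RPKM and the cartilage genes to 50.8 to 66.7 against 89.3 to 146 RPKM, both without overlap. The part of these cells in the Itga2 difference was not tested. Itga6 had 5.08, 20.5 and 16.2 RPKM in oral against 9.76, 7.61, 10.6 and 5.88 RPKM in nasal libraries. These overlapped only through anterior oral replicate 1, the shallowest library, which also had the lowest Itgb5 (11.7 RPKM) and Lamc1 (20.8 RPKM) of all 25. Itga10 and Itga11 had 1.94 ± 0.169 and 5.73 ± 3.25 RPKM in anterior nasal palate (n = 4) against 2.46 ± 1.06 and 6.61 ± 4.52 RPKM in anterior oral palate (n = 3).

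The test of whether the oral-nasal difference itself differed between anterior and posterior palate gave 0 of 19 members at an adjusted p under 0.05 with limma, against 0.035% of all genes, and 3 of 19 at an unadjusted P under 0.05, against 3.38%, of which 2 passed the thresholds of the study (2.38%). These 3 were Itga10 (-1.67, SE 0.49, adjusted p = 0.597), Itga11 (-1.61, SE 0.72, adjusted p = 1.00) and Lama2 (0.87, SE 0.34, adjusted p = 1.00), as posterior minus anterior differences. The reverse pattern of Itga10 and Itga11 was therefore not shown to differ between the regions.

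Lateral and medial palate were compared to find subunits graded across the shelf. In anterior palate, 1 of 15 members tested passed, Itga2, against 2.51% of all genes. It had 7.54, 7.26 and 9.67 RPKM in lateral and 3.76, 4.55 and 4.42 RPKM in medial libraries, without overlap, a 1.89-fold difference (0.92, SE 0.15, adjusted p = 0.0242, limma). Itga2 met the minimum only through the lateral libraries, so its being tested depended on the difference, and the call is a description of this gene. The call was lost without any 1 of the anterior medial libraries (adjusted p 0.0585 to 0.0658), and without an anterior lateral library too few libraries reached 5 RPKM for Itga2 to be tested. It was kept in 4 of the 13 alternative settings that gave a value. The laminin receptor Itga6 (0.53, adjusted p = 0.0910), Itga4 (0.49, adjusted p = 0.160), Lamc1 (0.41, adjusted p = 0.157) and Lama2 (0.32, adjusted p = 0.260) passed only the unadjusted 0.05, all with higher means in lateral palate. With Itga2 these made 5 of 15, against 15% of all genes, and 0 of 15 passed the thresholds of the study, against 2.37%. In all, 7 of 15 did not overlap between the groups, each of them higher in lateral palate, against 21.3% of all genes. The median difference was 0.23 over the members and -0.03 over all genes tested, and 12 of 15 members were above 0 against 44.7% of all genes. These counts include Itga2, tested only through the lateral libraries, and describe the members tested.

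Itga7 and Itga3, laminin receptor subunits under the 5 RPKM minimum, were called when it was set at 1 RPKM. Itga7, best known from muscle, had 1.23, 2.36 and 1.65 RPKM in anterior lateral and 0.215, 0.199 and 0.247 RPKM in anterior medial libraries (2.48, SE 0.23, adjusted p = 0.0129, limma). Itga3 had 2.18, 2.54 and 2.38 against 0.467, 0.821 and 0.705 RPKM (1.72, SE 0.20, adjusted p = 0.0192). Neither overlapped. Both met that minimum only through the lateral libraries, and with no minimum the adjusted p was 0.0268 for Itga7 and 0.0419 for Itga3. The medial levels of Itga7 were close to what few reads give at this depth. With this minimum Itga2 was no longer called.

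Other cell types moved with the anterior comparison as well. Of the smooth muscle and pericyte markers 4 of 10 tested were higher in lateral palate (Actg2, Abcc9, Mcam and Myh11), with sums of 261 to 264 RPKM against 138 to 193 RPKM. Of 12 endothelial markers 10 were above 0 and none was called, with sums of 284 to 315 against 222 to 259 RPKM. The cartilage markers Acan and Sox9 were lower in lateral palate, the osteoblast gene Runx2 and the keratin Krt14 were lower, and Krt8 and the Schwann cell gene Sox10 were higher. Prph of the nerve list and Prrx2 of the mesenchyme list were lower and Osr2 was higher, and the skeletal muscle sums of both groups lay between 8.35 and 37.0 RPKM. The part of these cells in the subunit differences was not tested. The integrin ligands Tnn (-3.55, adjusted p = 2.8e-05) and Ctgf (-2.002, adjusted p = 0.00113) were lower and Tgfb3 was higher (0.83, adjusted p = 0.0126) in lateral palate.

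In posterior palate, 0 of 17 members passed the adjusted threshold between lateral and medial libraries with limma, where 0% of all genes did, and 1 of 17 passed at an unadjusted P under 0.05, against 1.54% of all genes, and also the thresholds of the study (1.12%). Of the 17, 13 were above 0, against 54.3% of all genes. The 1 member was Itga1, a collagen receptor of mesenchyme and smooth muscle, with 8.62, 4.32 and 5.45 RPKM in lateral and 8.90, 17.7 and 10.8 RPKM in medial libraries (-1.01, SE 0.40, adjusted p = 0.957). The groups did not overlap, by a gap of less than the spread within either, and the highest value came from posterior medial replicate 2, which stands apart. Itga2 had 6.95, 11.6 and 8.06 RPKM in lateral against 6.38, 0.101 and 6.27 RPKM in medial libraries. These did not overlap either, and without replicate 2 the medial mean was 6.32 RPKM in place of 4.25. In all, 4 of 17 did not overlap, against 6.62% of all genes. Markers of other cell types differed here too. The smooth muscle and pericyte genes summed to 92.8 to 116 RPKM in lateral and 135 to 195 RPKM in medial libraries, and the epithelium genes to 39.1 to 60.2 and 81.5 to 196 RPKM, both without overlap. Macrophage genes summed to 128 to 197 RPKM in lateral and 199 to 317 RPKM in medial libraries. Schwann cell and nerve genes summed to 18.3 to 19.4 and 29.1 to 53.4 RPKM, and neither list overlapped. All 12 endothelial markers were above 0 and none was called, with sums of 246 to 306 against 182 to 282 RPKM. The part of these cells in the Itga1 and Itga2 values was not tested.

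The lateral-medial difference did not change detectably between anterior and posterior palate for any of the 18 members tested (0 at an adjusted p under 0.05 with limma, against 0.00902% of all genes). At an unadjusted P under 0.05 there were 2 of 18, against 3.36% of all genes, and both passed the thresholds of the study (2.42%). These were Lama1 (-1.98, SE 0.54, adjusted p = 0.736) and Itga1 (-1.13, SE 0.42, adjusted p = 0.964). Lama1 had 3.88, 2.94 and 2.97 RPKM in anterior lateral and 0.539, 1.44 and 0.861 RPKM in anterior medial libraries, which did not overlap. In posterior palate its medial level, 7.31 ± 1.76 RPKM, and its lateral level, 6.53 ± 2.57 RPKM (n = 3 each), did overlap. Lama1 met the minimum of this test only through posterior libraries.

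**Figure D5:**
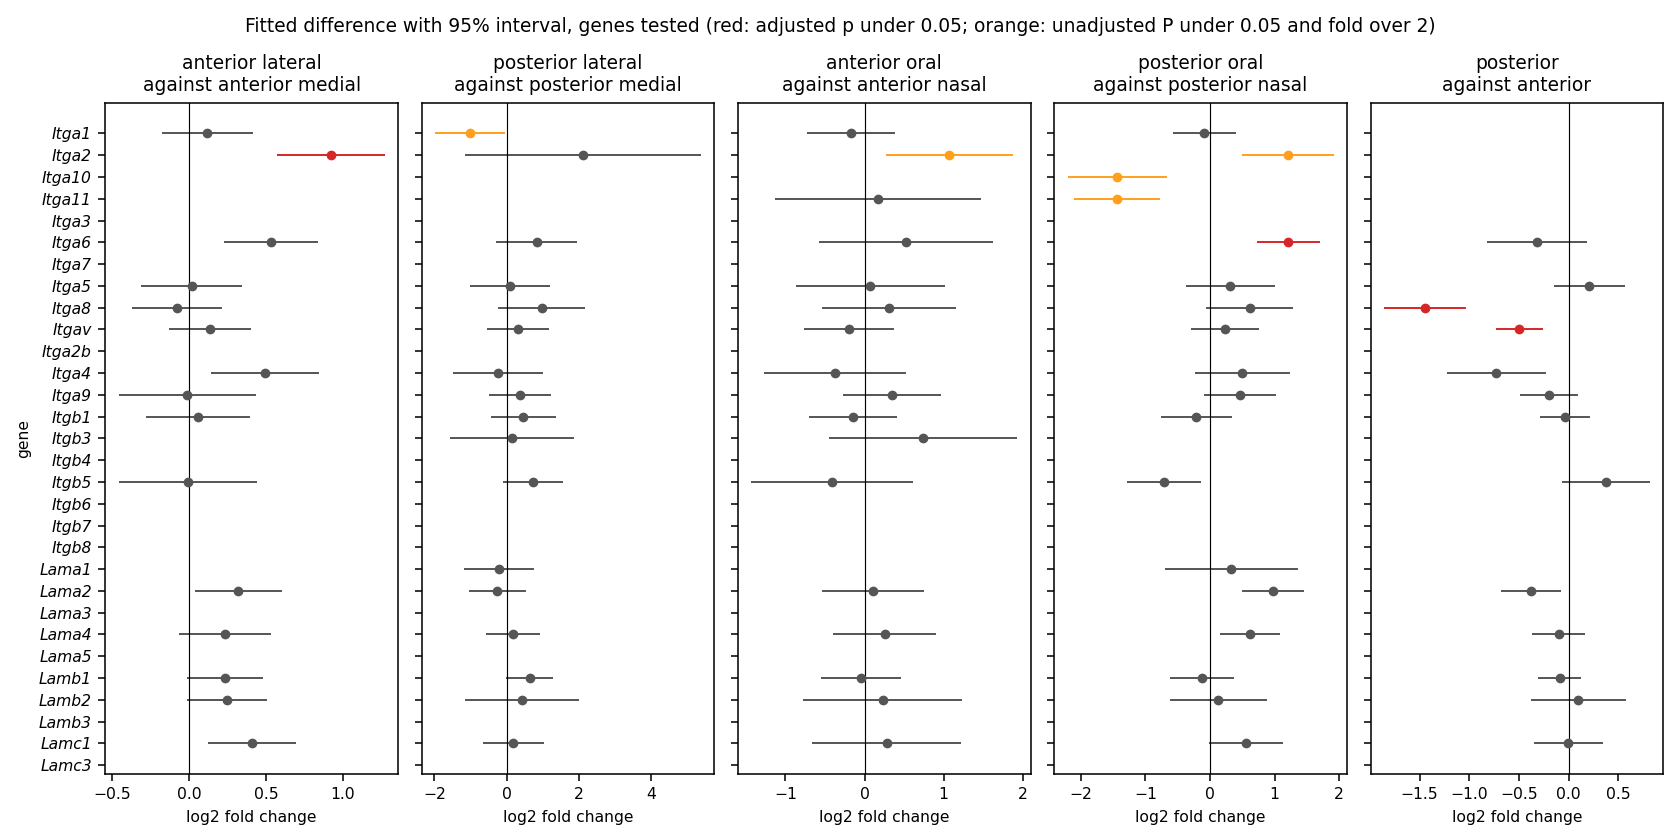
Fitted log2 fold change with its 95% interval (horizontal bars) for the members tested in each of 5 comparisons, each panel with its own horizontal scale. Red marks an adjusted p under 0.05 (Itga2, Itga6, Itga8 and Itgav), orange an unadjusted P under 0.05 with a fold change over 2, and the intervals are widest in posterior lateral against medial palate.

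A test for any difference among the 8 compartments called 4 of 20 members, against 4.42% of all genes tested, and 11 of 20 had an unadjusted P under 0.05, against 12%. The 4 called were Itga8 (F = 9.95, adjusted p = 0.00209), Lama1 (F = 8.50, adjusted p = 0.00472), Itga10 (F = 6.29, adjusted p = 0.0188) and Itgb8 (F = 5.99, adjusted p = 0.0233, limma). Of these, Lama1 and Itga10 met the minimum only through libraries where they were high, and Itgb8 only with posterior medial replicate 2. The counts therefore describe the members tested. The count of 4 became 2 with a mean-variance trend or sequencing run as a covariate, 8 without the libraries that stand apart, and 2 to 6 over libraries left out. Itga8 and Lama1 were called in 35 of 35 alternatives, Itga10 in 29 of 32 and Itgb8 in 26 of 31. Itgb8, a partner of Itgav in TGF-beta activation, was lowest in posterior nasal palate, with 0.692, 0.847 and 1.81 RPKM, and posterior oral palate followed at 1.99, 2.09 and 1.98 RPKM. The other compartments ranged from 2.20 to 5.76 RPKM in all libraries but posterior medial replicate 2, which had 10.4 RPKM. Without that library too few libraries reached 5 RPKM for Itgb8 to be tested. Lama1 was lowest in anterior medial palate (0.946 ± 0.456 RPKM) and highest in posterior medial palate (7.31 ± 1.76 RPKM), a 7.73-fold span of the means. It met the minimum only through posterior libraries, so its being tested depended on the difference, while the 35 alternatives included no filter on low values. Itga10 stayed between mean levels of 1.94 and 3.27 RPKM in 7 compartments and had 9.35 ± 3.57 RPKM in posterior nasal palate, through which alone it met the minimum.

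Smaller spans were found for 5 abundant subunits, but not for Itga8, whose means spanned 4.67-fold. The compartment means of Itgb1 spanned 1.33-fold, from 52.5 ± 21.2 RPKM in posterior medial to 69.9 ± 9.12 RPKM in posterior nasal palate. Those of Itga5, the fibronectin receptor, spanned 1.52-fold, Lamb1 1.57-fold, Lamc1 1.59-fold and Lama4 1.70-fold. None of these 5 passed the adjusted threshold among the compartments. That does not show equal levels: for Itgb1 the 95% interval of the log2 difference between posterior lateral and medial palate ran from -0.43 to 1.36. Itgb5 spanned 2.74-fold, from 23.9 ± 2.68 RPKM in posterior medial to 65.5 ± 6.37 RPKM in posterior nasal palate, and was not called either.

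Genes that work with the subunits were counted from lists. Of all genes tested, 3.32% passed between posterior and anterior palate, 2.51% between anterior lateral and medial palate, and 4.42% among the compartments. Of the basement membrane partners, 13 were tested between posterior and anterior palate and 1 passed, Nid1, the nidogen that links laminin to collagen IV, lower in posterior palate (-0.48, SE 0.08, adjusted p = 0.000213). Of 28 integrin ligands, 22 were tested there and 3 passed: fibronectin Fn1, lower (-0.34, adjusted p = 0.0108), and Emilin1 (0.66, adjusted p = 0.0348) and Col1a1 (0.46, adjusted p = 0.0319), higher in posterior palate. Of 25 adhesion adaptors, 21 were tested and 0 passed, with 2 at an unadjusted P under 0.05, while 1 of 22, Dst, passed between anterior lateral and medial palate, lower in lateral (-0.95, adjusted p = 0.0304). Nephronectin (Npnt), the main ligand of the Itga8 integrin, was among the 4 of 17 basement membrane partners and 3 of 26 integrin ligands called among the 8 compartments. It is named after its values were seen. Its mean ran from 2.85 ± 2.43 RPKM in posterior medial to 21.5 ± 10.2 RPKM in posterior nasal palate, with 10.5 ± 6.02 RPKM in anterior and 13.3 ± 8.69 RPKM in posterior libraries.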

How the data were processed

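Libraries of laser captured CD1 palate tissue were made by the authors from amplified RNA and sequenced as single-end 50 base reads. Per the labels and methods, reads were aligned to mm9 with TopHat, and RPKM values per gene were computed by the authors in GeneSpring 12.6.1 and deposited as 1 table of 37406 genes in 25 libraries. Duplicate and multi-mapping reads were removed upstream, which lowers the values of near-identical genes. No read counts were used here. The depth was estimated from the steps of low values. At that depth, counting alone gives a coefficient of variation of 7.81% to 15.6% at 5 RPKM on 5000 bases.

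Samples were grouped by the compartment in their labels. Differences were fitted on log2(RPKM + 0.1), which understates the change of low genes, with limma 3.58.1 in R 4.3.3 on the whole table, with Benjamini-Hochberg adjustment across the genes that entered each fit. Genes needed 5 RPKM in at least 3 of the compared libraries, or 10 RPKM in at least 6 of 25 for posterior against anterior. Each pairwise fit used the libraries of its 2 compartments. The thresholds of the study, a P under 0.05 (adjustment not stated, read as unadjusted) with a fold change over 2, were counted beside the adjusted calls, for posterior against anterior with limma in place of the pooled Audic-Claverie analysis of the study. The deviations of same-numbered anterior oral and nasal libraries were weakly correlated (0.242, 0.218 and 0.116), which does not establish pairing. Replicates 2 and 3 of these compartments came from different sequencing runs. The replicate block changed no call there.

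Members and lists were chosen with earlier results of these data known. Values by compartment were given for members reaching a mean of 5 RPKM in a compartment, values per library for those called in a pairwise comparison by either threshold (lowest, median and highest for groups over 5 libraries), and the rest by counts and ranges. Of the related lists, up to 2 called genes per direction and comparison were named. Alternatives changed the pseudocount, scaling, variance model, minimum, samples, run and block. The fits were also run on simulated data, whose outcome is not reported here and is not used as support. Figures were drawn with Python 3.11.15 and matplotlib 3.10.9.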

Additional observations from a re-analysis of the deposited data

Results flagged for a closer look

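In anterior nasal palate, the compartment with 4 libraries, 4 of the 30 subunits had 1 library whose gap to the nearest other was large against the range of the group. Itga2 was 2.50 RPKM in replicate 2, and the nearest other library had 5.53 RPKM. Itga3 was 3.94 RPKM in replicate 3, with 2.22 RPKM in the nearest other. Itgb7 was 0.964 RPKM in replicate 3, with 2.49 RPKM in the nearest other. Lama3 was 4.26 RPKM in replicate 1, with 2.15 RPKM in the nearest other. Of the 21726 genes that vary in this compartment 17.7% passed the same limit, and of the 15100 with a mean of at least 1 RPKM there 8.49%, so 4 of 30 lies between these shares. By construction of the limit, chance alone passes about 5% of groups. No member had a difference between anterior and posterior palate in its lateral-medial or oral-nasal contrast at an adjusted p under 0.05 (0 tests, limma), with 2 and 3 at an unadjusted P under 0.05.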

How the results depend on the processing

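Itga8 kept its direction and its call between posterior and anterior palate in 36 of 36 alternatives (-1.52 to -1.22), and Itgav in 35 of 36. Among the compartments, Itga8 and Lama1 were called in 35 of 35, Itga10 in 29 of 32 and Itgb8 in 26 of 31 alternatives. Unlike Itga8, Lama1 met the main minimum only through posterior libraries. The 2 pairwise calls depended on the settings. Between anterior lateral and medial palate the count of 1 member became 0 with a mean-variance trend, the replicate block, all 25 samples in one fit or sequencing run as a covariate, became 2 with no filter or another minimum, and was 0 to 0 when any 1 library was left out. Between posterior oral and nasal palate the count of 1 became 0 with a trend, the replicate block, no filter, another minimum, all 25 samples or the run covariate, and was 0 to 0 when any 1 library was left out. Between posterior and anterior palate the count of 2 became 4 with no filter, 3 with another minimum and 1 with the run covariate, and was 2 to 3 over libraries left out. Among the compartments the count of 4 became 2 with a trend or the run covariate and 8 without the libraries that stand apart, an alternative chosen after seeing the data, and was 2 to 6 over libraries left out, with 2 without posterior nasal replicate 1 or 2. The cause of these changes was not tested. The member counts of the other comparisons were 0 in each setting run.

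The replicate block, tried where numbers only may pair the samples (correlations -0.101 to 0.305, 7 of 12 pairs over 0.1), moved the genes called from 262 to 157 between anterior lateral and medial and from 132 to 90 between posterior oral and nasal palate. All genes called ranged from 0 to 318 and from 11 to 143 over the alternatives of these comparisons, against 143 to 485 for posterior against anterior and 177 to 917 among the compartments. The median of the members in the lateral-medial difference between regions was 0.18 and turned to -0.10 with quantile normalization. Depth limits what can be said of subunits under 5 RPKM.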

Other observations

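The make-up of the receptors differed by compartment in more than Itga8. Itga10 made up 7.74% ± 2.83 (SD, n = 3) of the summed RPKM of integrin alpha subunits in posterior nasal palate, and between 1.11% and 2.15% in the other compartments. Itgb5 made up 45.5% ± 4.81 of the beta subunits in posterior nasal palate and from 24.3% to 36.7% elsewhere. The alpha subunits together summed to a mean of 213 RPKM in anterior oral and 121 RPKM in posterior nasal palate. These shares were not tested.

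Lamc3, a gamma chain known from nerve and retina, had a ratio of highest to lowest compartment mean of 11.1, at levels where few reads decide the value, with its highest mean, 2.86 RPKM, in posterior nasal palate. Itga7 had its highest mean, 2.54 RPKM, in posterior medial palate, but this rested on replicate 2 (0.423, 7.18 and 0 RPKM), which stands apart, and was 0.211 RPKM without it (n = 2).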
